A study of Mus musculus with 16 samples.

Results

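The genes described here are 7 regulators of G protein signalling, the RGS genes Rgs1, Rgs2, Rgs3, Rgs10, Rgs14, Rgs16 and Rgs19, chosen by gene symbol in the platform annotation. They had 16 probes on the array, 3 for Rgs1, 8 for Rgs3 and 1 for each of the others. Of these probes 13 passed the detection filter, so that 6 of the 7 genes were among the 8480 genes tested, out of 16593 genes with a probe. The probe of Rgs2 was above background on 0 of 16 arrays.

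RNA came from CD4+ T cells of 4 MALT1 deficient mice on a C57BL/6 genetic background. MALT1 is a protease and scaffold protein through which antigen receptors activate NF-kB, and the study concerns its splice isoforms A and B. A retrovirus gave cells of each mouse back one of these isoforms, or was a mock. The 4 groups, each of 4 bead arrays, were isoform A stimulated, isoform B stimulated, mock stimulated and isoform A unstimulated cells. Stimulation was through CD3 and CD28 for 2.5 h. The sample titles number the arrays of a group as replicates, and each number is read here as a mouse. All groups lacked the mouse's own MALT1, the mock cells had none given back, and mock or isoform B cells without stimulation were not analysed here. The share of cells that took up a construct is not given in the sources used here.

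Heterotrimeric G proteins carry signals from receptors such as those for chemokines, prostaglandins and sphingosine 1-phosphate. An active alpha subunit holds GTP, and the RGS domain speeds the hydrolysis of that GTP, which ends the signal of the alpha subunit and of the beta-gamma dimer it releases. In lymphocytes RGS proteins are known above all for shortening chemokine receptor signals and so for setting how cells migrate and stay in lymphoid tissue.

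Median raw intensity was 121.8 to 138.8 on the 16 arrays. Between 10247 and 11012 probes were above background on stimulated arrays and between 11239 and 12085 on unstimulated arrays. The arrays of mice 1 and 2 had raw maxima of 34329 to 38404, and those of mice 3 and 4 had maxima of 41735 to 43710, with every group present in both sets. The Malt1 probe read 122.8 to 138.9 in isoform A stimulated, 120.1 to 137.7 in isoform B stimulated, 126.0 to 140.4 in mock stimulated and 133.8 to 135.9 in isoform A unstimulated cells, and was above background on 4 of 16 arrays. Whether that probe lies in the deleted part or in the constructs is not known here, so it checks no label. All 7 T cell markers with a probe, Cd4 among them at a dim 160.6 to 337.1, were above background on all 16 arrays. All 5 macrophage and dendritic cell markers with a probe were on none, and of 6 B cell and 5 granulocyte markers 0 were above background on all 16 arrays. Of 8 markers of CD8 and cytotoxic lymphocytes 5 were above background on all 16 arrays. These were Nkg7 at 6565 to 12562, Cd8b1 at 2633 to 4455, Klrd1 at 1283 to 3452, Prf1 at 591.6 to 2680 and Eomes at 185.7 to 335.7. All of them but Eomes read above the range of Cd4. Klrb1c was above background on 5 arrays, and Cd8a and Ncr1 were on none. In bulk RNA, fewer cells of a type and less RNA per cell cannot be told apart.

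Stimulation of isoform A cells raised Rgs16, Rgs1 and Rgs3, lowered Rgs14, and gave no called difference for Rgs10 and Rgs19. Thus 3 of the 6 genes tested rose and 1 fell, where 29.6% of all 8480 genes rose and 36.8% fell, 66.4% in all (limma, Benjamini-Hochberg adjusted p under 0.05). With most genes called, the share of called members was near that of all genes, and the groups did not overlap for 4 of 6 members, as for 61.5% of genes. The 1 that fell, Rgs14, passed the detection filter only through the unstimulated arrays. Its fall and its lack of overlap were therefore favoured by the filter. The median log2 difference was 0.73 over the 6 members and -0.02 over all genes. Per probe, 8 of 13 rose and 1 fell, against 66% of 12344 probes called. Signals below are raw bead intensities, and differences are on the log2 scale after normalization, with standard errors and n = 4 mice per group.

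Rgs16 encodes a small RGS protein, little more than the RGS domain, that acts on Gi and Gq alpha subunits. Its signal in mice 1 to 4 was 6171, 6464, 4155 and 4073 in isoform A stimulated cells, against 188.2, 179.8, 251.2 and 207.3 in isoform A unstimulated cells. The groups lay far apart, and unstimulated cells were low but above background on 4 of 4 arrays. The difference was 6.06 ± 0.16, or 66.9-fold (adjusted p of 6.47e-15), which was rank 9 of 8480 genes by size of rise. It was 6.58 within mice 1 and 2 and 5.55 within mice 3 and 4. Without background correction the difference was 4.79.

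Rgs1 encodes another small RGS protein that acts on Gi, and it is known as an activation gene of lymphocytes that restrains migration towards chemokines. Its brightest probe, ILMN_2625377, read 6414, 6357, 5964 and 6718 in isoform A stimulated cells, against 1118, 967.6, 1283 and 1569 in isoform A unstimulated cells. The groups did not overlap, and Rgs1 was well above background before stimulation. The difference was 2.60 ± 0.19, or 6.06-fold (adjusted p of 2.26e-09). The other probes rose by 6.19-fold (ILMN_2596596) and 7.28-fold (ILMN_2897891), so that all 3 probes of the gene moved alike.

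Rgs3 is a member with several protein forms, from short ones made up mainly of the RGS domain to long ones with other domains, and acts on Gi and Gq. Its brightest probe, ILMN_1239208, read 323.3, 365.5, 328.9 and 323.9 in isoform A stimulated cells, against 230.9, 279.8, 271.9 and 230.7 in isoform A unstimulated cells. The signals were dim but did not overlap, and the difference was 1.26 ± 0.11, or 2.40-fold (adjusted p of 1.19e-08). The difference was 0.74 with arrays scaled to a common median.

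The probes of Rgs3 did not all behave alike. ILMN_1228100, ILMN_1241709 and ILMN_3132318 rose by 3.79-fold, 2.99-fold and 3.63-fold in the fit of single probes. ILMN_2610678 and ILMN_2610679 differed by 0.21 (adjusted p of 0.317) and 0.05 (adjusted p of 0.687), with signals of 123.1 to 166.4 over all arrays. ILMN_2597135 was above background on 1 of 16 arrays and ILMN_2611960 on 0. The annotation gives these 8 probes 3 different transcript records, and the record with 6 probes held 2 probes that rose, 2 that were not called and 2 that were not kept, so the records do not sort the probes by their difference.

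Rgs14 encodes a larger RGS protein that also binds inactive Gi alpha subunits and Ras family proteins. It read 119.2, 122.4, 102.1 and 104.1 in isoform A stimulated cells, against 170.9, 184.5, 147.0 and 142.6 in isoform A unstimulated cells. It was above background on 0 of 4 stimulated arrays and on 4 of 4 unstimulated arrays, so the difference is a bound, at least 1.34-fold lower in isoform A stimulated cells (measured difference of -1.11 ± 0.13, adjusted p of 4.35e-07). Such a bound sets the mean of the bright group against the lowest signal above background on each dim array. Rgs14 was among the genes tested only because of its 4 unstimulated arrays, so its fall was favoured by the detection filter. The measured difference was -1.36 within mice 1 and 2 and -0.86 within mice 3 and 4, -0.41 without background correction and -2.39 in the authors' deposited value table.

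Rgs10 encodes a small relative of Rgs12 and Rgs14 that acts on Gi, and Rgs19 encodes a member whose protein carries a cysteine string and acts on Gi. Rgs10 read 940.6, 1224, 801.5 and 1018 in isoform A stimulated cells, against 955.7, 1396, 1192 and 1266 in isoform A unstimulated cells, and the groups overlapped. Its difference was -0.10 (95% confidence interval -0.37 to 0.18, adjusted p of 0.544). Rgs19 was dim, at 132.8 to 160.5 in isoform A stimulated and 141.3 to 162.7 in isoform A unstimulated cells. Its difference was 0.20 (interval -0.13 to 0.53, adjusted p of 0.267), and it turned to -0.08 (adjusted p of 0.706) when arrays were scaled to a common median. That scaling moved the median of all genes by -0.20.

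Rgs2 encodes a small RGS protein that prefers Gq. Its probe read 111.7 to 128.8 in isoform A stimulated, 108.4 to 131.8 in isoform B stimulated, 110.4 to 124.3 in mock stimulated and 117.0 to 123.4 in isoform A unstimulated cells. None of these was above background, so no fold is given.

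Some markers of T cells and of other cell types moved with stimulation as well. Of 7 T cell markers tested, 1 rose and 3 fell in isoform A stimulated against isoform A unstimulated cells. Zap70 was 2.19-fold higher, while Cd3e, Cd3d and Cd3g differed by -0.59, -0.60 and -0.65. The B cell marker Cd79b, dim at 113.0 to 173.1 over all arrays, was above background on 0 of 4 isoform A stimulated, 0 of 4 mock stimulated and 4 of 4 isoform A unstimulated arrays, as Rgs14 was (adjusted p of 0.00385 for isoform A and 0.00282 for mock). It was the 1 B cell marker called of 2 tested, and the mean log2 level of the 6 B cell markers was 4.58 to 4.82 in isoform A stimulated, 4.59 to 4.86 in mock stimulated and 4.73 to 4.99 in isoform A unstimulated cells. Of the markers of CD8 and cytotoxic lymphocytes, Prf1, the pore-forming protein perforin, was 2.85-fold higher in isoform A stimulated than in isoform A unstimulated cells (adjusted p of 0.000349), and Klrd1 was lower (adjusted p of 0.0184). The other 4 of the 6 tested were not called, though Cd8b1 differed by 0.04 on its tested probe and by 0.83 on its other probe. In mock stimulated against isoform A unstimulated cells, Prf1 was 2.78-fold higher (adjusted p of 0.000458) and Eomes 1.59-fold higher (adjusted p of 0.0128). There too the other 4 were not called. The mean log2 level of these 8 markers was 8.12 to 8.58 in isoform A stimulated and 7.92 to 8.32 in isoform A unstimulated cells. The part of any of these markers in the RGS differences was not tested.

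**Figure D1:**
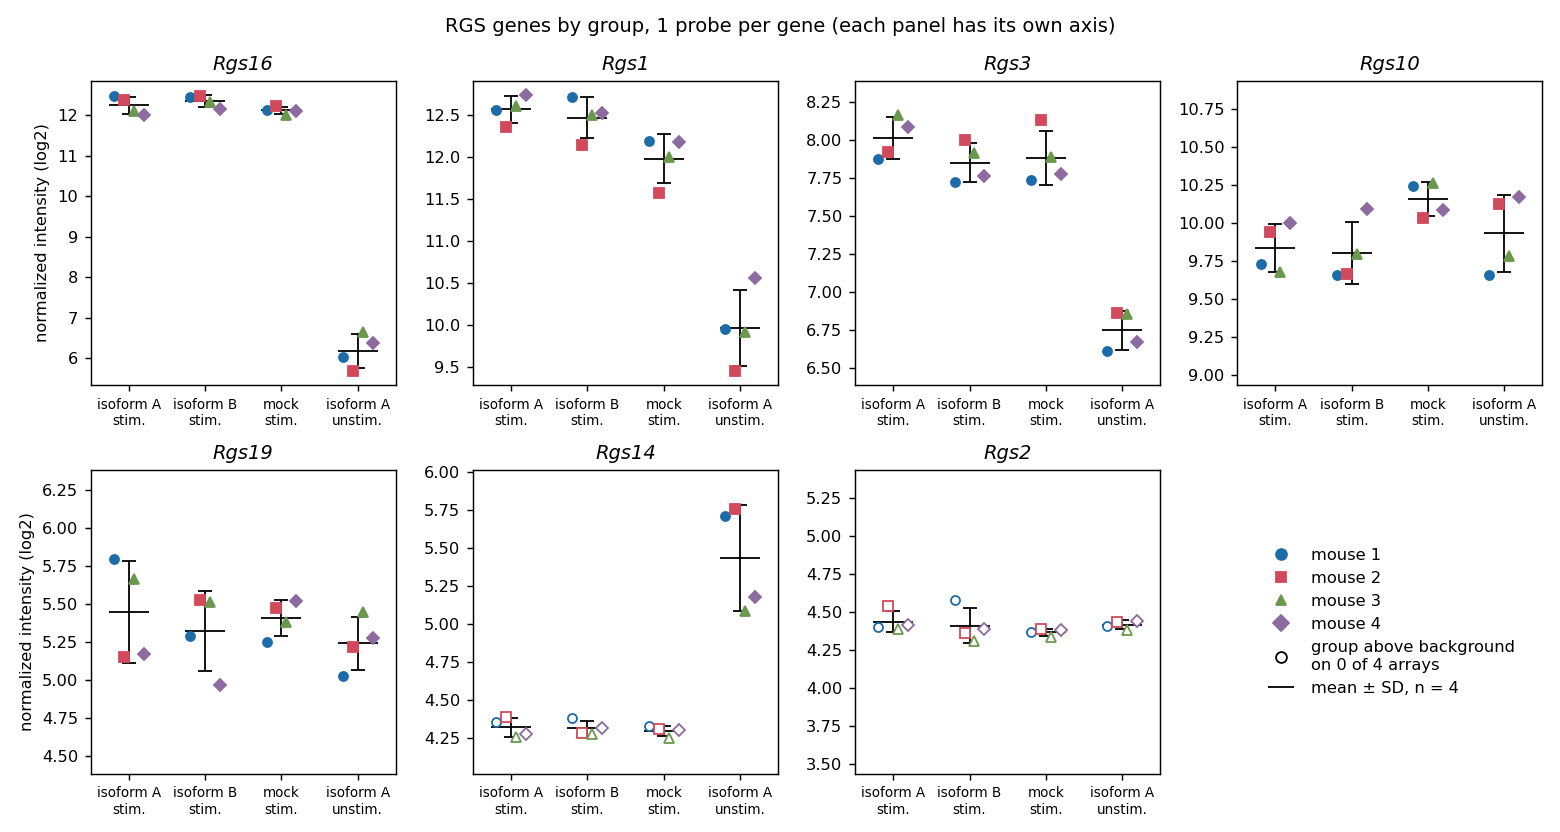
Normalized log2 intensity of the 7 RGS genes (y axis, own scale in each panel) in the 4 groups (x axis), with 1 marker per mouse and the mean ± SD of 4 mice. Rgs16, Rgs1 and Rgs3 are higher in all stimulated groups than in isoform A unstimulated cells, Rgs14 is above background only in the unstimulated group (open markers, 0 of 4 arrays above background), and Rgs2 is above background in no group.

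Mock cells, which lacked MALT1 altogether, were set against the same unstimulated arrays, so the comparison shares its controls with the first one, and stimulation and construct cannot be told apart in it. Of the 6 members tested 3 were higher and 1 lower in mock stimulated cells, where 65.9% of genes were called, 29.7% higher and 36.2% lower. The lower one was again Rgs14, which passed the detection filter only through the unstimulated arrays. The erythroid marker Hba-a1, a haemoglobin chain, was 5.84-fold higher in mock stimulated cells too (205.4 to 976.4, against 144.1 to 202.0 in isoform A unstimulated cells, adjusted p of 0.000283), and its part was not tested. Rgs16 read 5906, 4705, 4034 and 3986 in mock stimulated cells and was 61.7-fold higher than in isoform A unstimulated cells (5.95 ± 0.16, adjusted p of 1.04e-14). Rgs1 read 6075, 2869, 4002 and 4200 and was 4.04-fold higher (2.02 ± 0.19, adjusted p of 6.59e-08). Rgs3, at 369.4, 336.3, 310.7 and 273.8, was 2.20-fold higher (1.13 ± 0.11, adjusted p of 4.99e-08). Its raw signals overlapped those of isoform A unstimulated cells, which reached 279.8. Without background correction the Rgs3 difference was 0.68.

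Rgs14 was above background on 0 of 4 mock stimulated arrays and at least 1.38-fold lower there than in isoform A unstimulated cells (adjusted p of 3.46e-07). Rgs10 differed by 0.22 (interval -0.05 to 0.50, adjusted p of 0.144) and Rgs19 by 0.17 (interval -0.17 to 0.50, adjusted p of 0.375). Stimulated cells with isoform A and stimulated cells with no MALT1 thus both differed from the same isoform A unstimulated arrays in Rgs16, Rgs1, Rgs3 and Rgs14. Without unstimulated mock cells, a response to stimulation in cells with no MALT1 was not measured.

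**Figure D2:**
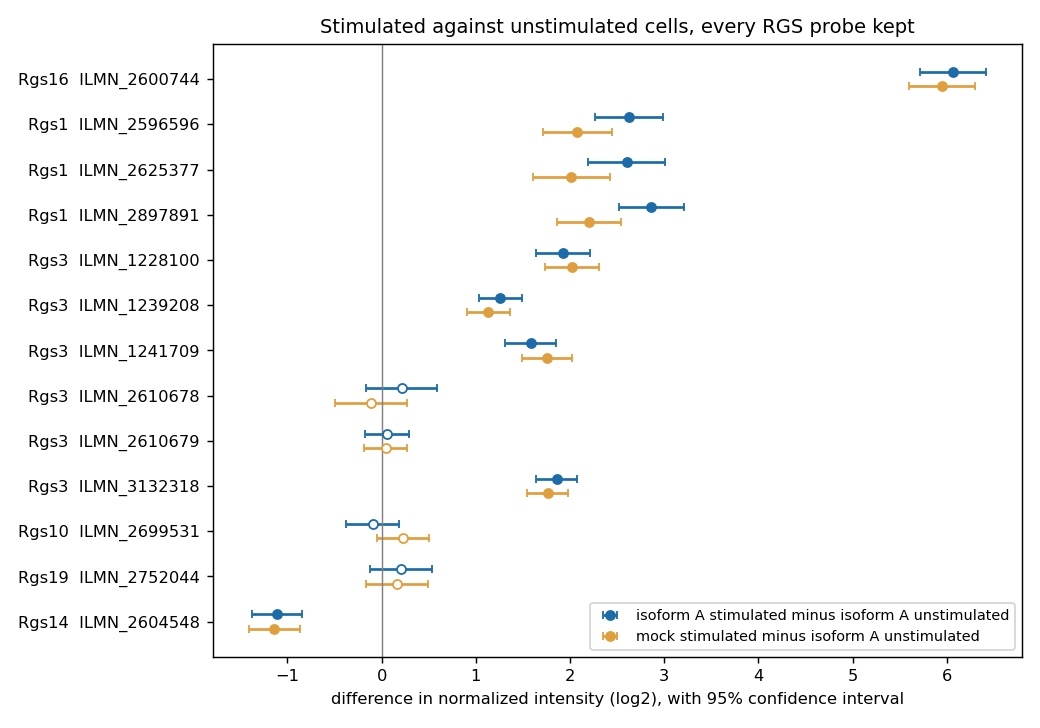
Log2 difference with its 95% confidence interval (x axis) for each of the 13 RGS probes kept (y axis), for isoform A stimulated (blue) and mock stimulated cells (orange), each minus isoform A unstimulated cells. Filled points passed an adjusted p of 0.05. Rgs16 stands alone at 6.06 and 5.95, the 3 Rgs1 probes lie together, and the Rgs3 probes split into 4 that rose and 2 near 0.

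The genomic setting and the start-site sequence of members that rose are given to let a reader see what they share. In the gene table of assembly GRCm38.p6, chromosome 1 carries 11 RGS genes. Rgs1 stands in a run of 5 with Rgs2, Rgs13, Rgs21 and Rgs18 with 0 other protein-coding genes between them, and Rgs16 is the neighbour of Rgs8. Among the RGS genes of that chromosome with a probe, Rgs1 and Rgs16 were above background on 16 of 16 arrays, and Rgs2, Rgs4, Rgs5, Rgs7, Rgs8, Rgs13, Rgs18 and Rgs20 were on 0. Of the genes without a signal, only Rgs13 and Rgs8 stand directly next to Rgs1 or Rgs16. Rgs21, the other direct neighbour of Rgs1, had no probe. Whether neighbouring RGS genes are controlled together was not tested.

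RefSeq promoter sequences (build GRCm38.p6) were held for 5 members, with 8 start sites, and not for Rgs1 or Rgs14. The 250 bases before the start site are shown for Rgs16 (chr1:153740103-153740352, plus strand) and for both start sites of Rgs3 (chr4:62559597-62559846 and chr4:62619422-62619671, plus strand), the rising members with an entry. Capitals mark matches to the motifs searched.
Rgs16: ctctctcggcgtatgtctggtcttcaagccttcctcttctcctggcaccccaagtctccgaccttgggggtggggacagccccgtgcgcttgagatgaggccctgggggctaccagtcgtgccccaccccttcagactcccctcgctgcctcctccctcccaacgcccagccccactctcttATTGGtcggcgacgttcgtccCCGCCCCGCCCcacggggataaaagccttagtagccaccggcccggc
Rgs3 start site 1: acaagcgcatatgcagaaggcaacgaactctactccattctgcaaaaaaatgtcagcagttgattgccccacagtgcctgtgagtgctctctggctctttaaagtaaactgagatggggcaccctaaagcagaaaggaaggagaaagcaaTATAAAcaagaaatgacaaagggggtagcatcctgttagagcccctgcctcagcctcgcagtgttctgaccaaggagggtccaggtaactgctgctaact
Rgs3 start site 2: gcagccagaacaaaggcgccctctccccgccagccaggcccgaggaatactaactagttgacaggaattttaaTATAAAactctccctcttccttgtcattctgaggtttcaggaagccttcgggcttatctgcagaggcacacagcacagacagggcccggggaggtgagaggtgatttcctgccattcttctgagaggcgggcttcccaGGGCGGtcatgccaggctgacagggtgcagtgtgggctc
The capitals in Rgs16 are a CCAAT box on the minus strand, at position -68 from the start site, and 2 GC boxes on the minus strand that overlap each other. Those in Rgs3 are a TATA box letter match at each start site and a GC box at the second.

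Motifs were searched on both strands, and a match is a description of letters alone. The NF-kB consensus, AP-1 (TGANTCA), the cyclic AMP element (TGACGTCA) and the NFAT core (TGGAAA) matched in 0 of the 8 member windows. Of 32817 RefSeq promoter windows of this length, 7.25%, 6.75%, 1.55% and 18.6% held them, in that order. CCAAT was held by 33.8% of all windows, TATAAA by 12.4% and GGGCGG by 32.7%. GC content of the printed windows was 66.4% for Rgs16, 48.4% for the first Rgs3 start and 56.8% for the second, so they share neither base composition nor a motif across all 3.

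Among stimulated cells, the comparison of isoform A with mock asks what MALT1 isoform A adds. Rgs1 was the member with the largest difference, higher in isoform A than in mock cells of every mouse, but whether it passed the threshold depended on the model and on how its probes were combined. With limma's model of group means, 0 of 6 members were called, where 4.86% of 8480 genes were, and 2 members (Rgs1 and Rgs10) had an unadjusted p under 0.05, as had 19% of genes. With the mouse as a block, 1 member rose and 0 fell, where 8.79% of genes were called and 4.42% rose. The median difference was 0.08 over the members and -0.01 over all genes.

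Rgs1 had normalized log2 intensities of 12.55, 12.36, 12.61 and 12.74 in isoform A stimulated cells, against 12.185, 11.565, 11.998 and 12.174 in mock stimulated cells. These did not overlap for 2 of 6 members, Rgs1 and Rgs10, and for 10.1% of genes, while the raw Rgs1 signals did overlap, at 5964 to 6718 in isoform A and 2869 to 6075 in mock cells. The differences within mice 1 to 4 were 0.37, 0.80, 0.61 and 0.57, all positive and largest in mouse 2, whose mock array was the lowest. Within mice 1 and 2 the mean difference was 0.58 and within mice 3 and 4 it was 0.59, neither called. The mean was 0.59 ± 0.19, or 1.5-fold, with an adjusted p of 0.105 without and 0.00825 with the mouse as a block. With that block the adjusted p was 0.0107 to 0.0321 when any 1 array of the 2 groups was left out, and the call was kept in 8 of 8 such fits.

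The other Rgs1 probes gave differences of 0.66 (ILMN_2897891, adjusted p of 0.0279) and 0.55 (ILMN_2596596, adjusted p of 0.0865, and 0.0367 with the mouse as a block), each positive in 4 of 4 mice. Over single probes 1 of 13 was called, where 4.12% of probes were called, and 3 of 13 with the mouse as a block, where 7.67% were. All 3 of those probes were of Rgs1. When the probes of a gene were averaged, the difference was 0.60 with an adjusted p of 0.0459.

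Rgs10 moved the other way without passing the test. Its log2 intensities were 9.73, 9.94, 9.68 and 10.004 in isoform A stimulated cells, against 10.24, 10.04, 10.27 and 10.09 in mock stimulated cells. These values did not overlap, with mice 1 and 3 apart by more than mice 2 and 4, while the raw signals overlapped, at 801.5 to 1224 in isoform A and 1017 to 1672 in mock cells. The mean difference was -0.32 ± 0.13, with an adjusted p of 0.189, and 0.108 with the mouse as a block.

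The remaining members gave intervals around 0. Rgs16, the member with the largest response to stimulation, differed by 0.12 (interval -0.23 to 0.46, adjusted p of 0.775) between isoform A and mock. Rgs3 differed by 0.13 (interval -0.10 to 0.35) and Rgs19 by 0.04 (interval -0.29 to 0.37), while Rgs14 was above background on 0 arrays of both groups.

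Beside these results, Hba-a1, the alpha chain of haemoglobin and a marker of erythroid cells, read 140.0 to 195.3 in isoform A stimulated, 125.8 to 149.3 in isoform B stimulated and 205.4 to 976.4 in mock stimulated cells. It was lower in isoform A than in mock cells (adjusted p of 0.0148) and lower in isoform B than in mock cells (adjusted p of 0.00591). The other erythroid markers with a probe, Alas2 and Epb42, were above background on 0 of 16 arrays, and the mean log2 level of the 3 markers was 4.84 to 5.15 in isoform A, 4.64 to 4.92 in isoform B and 5.04 to 6.32 in mock stimulated cells. The part of such cells in the differences from mock was not tested.

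Isoform B was set against the same mock arrays. Again 0 of 6 members were called by limma, where 1.86% of genes were, 2 (Rgs1 and Rgs10) had an unadjusted p under 0.05, where 12% of genes had, and 1 rose with the mouse as a block, where 3.99% of genes were called and 1.95% rose. Rgs1 had log2 intensities of 12.72, 12.14, 12.50 and 12.52 in isoform B stimulated cells, against 12.185, 11.565, 11.998 and 12.174 in mock stimulated cells. The groups overlapped on this probe, as they did on the tested probe of all 6 members (7.69% of genes did not), but the value of isoform B was the higher in 4 of 4 mice. The difference was 0.49 ± 0.19, or 1.40-fold, with an adjusted p of 0.290 without and 0.0344 with the mouse as a block.

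The call with the block was less steady than that for isoform A. It was kept in 2 of 8 fits that left out 1 array, those without isoform B mouse 4 (adjusted p of 0.0229) or mock mouse 1 (0.0462). It was lost without isoform B mouse 1, 2 or 3 and without mock mouse 2, 3 or 4, at up to 0.117. It was also lost with the block under median scaling (0.146) and in the authors' deposited value table (0.0661). The other Rgs1 probes differed by 0.72 (ILMN_2596596, adjusted p of 0.0462) and 0.66 (ILMN_2897891, adjusted p of 0.0525). Their normalized groups did not overlap, while their raw signals did. Thus 1 of 13 probes was called, where 1.48% of probes were called, and 3 of 13 with the block, where 3.5% were. All 3 were of Rgs1, so they are repeat readings of 1 gene on the same arrays.

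Rgs10 had log2 intensities of 9.66, 9.66, 9.80 and 10.097 in isoform B stimulated cells and differed by -0.36 ± 0.13 between isoform B and mock (adjusted p of 0.235, and 0.122 with the block), negative in 3 of 4 mice. Rgs16 read 6674, 5614, 5050 and 3864 in isoform B stimulated cells, against 5906, 4705, 4034 and 3986 in mock stimulated cells. It differed by 0.23 (interval -0.12 to 0.58, adjusted p of 0.653) and its normalized value was the higher in isoform B cells of 4 of 4 mice, with overlapping groups. Rgs3 and Rgs19 differed by -0.03 and -0.08, with adjusted p-values of 0.953 and 0.911.

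Isoform A against isoform B gave no called member. With limma 0 of 6 members passed, with or without the mouse as a block, and 0 had an unadjusted p under 0.05, where 0.212% of genes passed without the block, 0.542% with it, and 9.61% had an unadjusted p under 0.05. Rgs1 differed by 0.10 (interval -0.32 to 0.51, adjusted p of 0.929), and its other probes by -0.17 and 0.01. Rgs16 differed by -0.11 (interval -0.46 to 0.23), Rgs3 by 0.16 (interval -0.07 to 0.39), Rgs10 by 0.04 (interval -0.24 to 0.31) and Rgs19 by 0.12 (interval -0.21 to 0.45). These intervals bound the differences between the isoforms and do not show that the isoforms act alike.

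**Figure D3:**
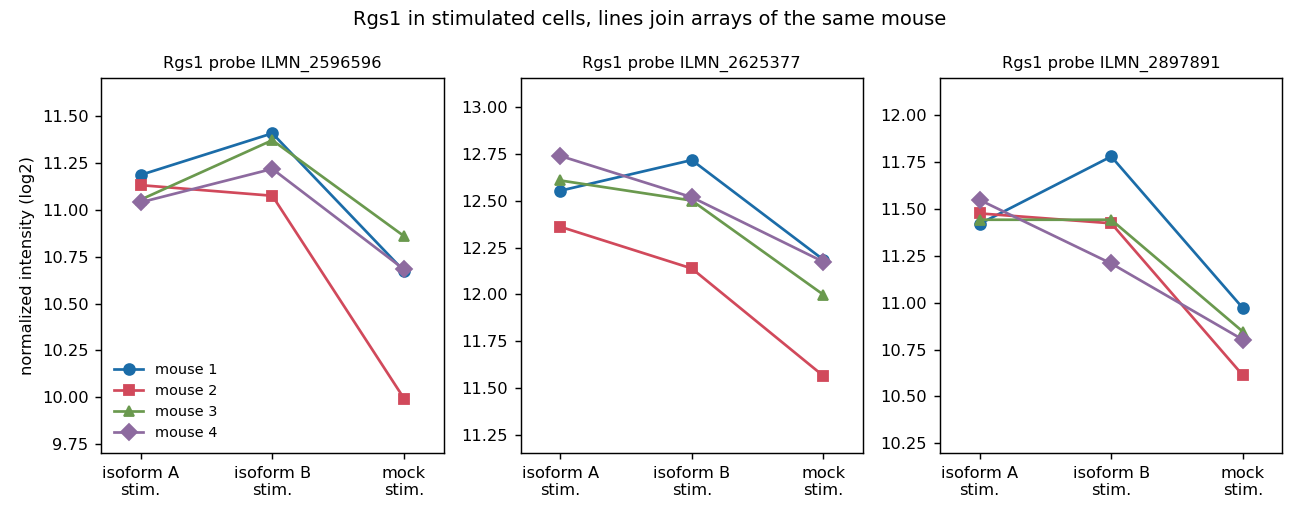
Normalized log2 intensity (y axis) of the 3 Rgs1 probes, 1 per panel, in isoform A, isoform B and mock stimulated cells (x axis), with lines joining the arrays of a mouse. In each panel the mock value of every mouse lies below its isoform A and isoform B values, and the lines between isoform A and isoform B run both up and down.

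The other genes of G protein signalling were read through 7 lists with 145 genes, of which 77 were tested. In isoform A stimulated against isoform A unstimulated cells, 20 of them rose and 40 fell, where 29.6% of all genes rose and 36.8% fell, with a median of -0.33 against -0.02 over all genes. None of the 60 called genes turned its sign without background correction, with arrays scaled to a common median or in the authors' deposited value table, and the split was 14 higher and 43 lower under median scaling. In mock stimulated against isoform A unstimulated cells, 17 rose and 39 fell, where 29.7% of all genes rose and 36.2% fell.

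Of 18 genes listed as other RGS domain genes 5 were tested, and 2 rose and 1 fell in isoform A stimulated against isoform A unstimulated cells. The list does not hold every gene with such a domain, and Arhgef1 is counted below with other G protein regulators. Rgs12, a large relative of Rgs10 and Rgs14, fell by 1.99 ± 0.15 (adjusted p of 1.85e-09). Akap10, an anchor of protein kinase A, rose by 1.01, and Axin2, a scaffold of the Wnt pathway, rose by 0.34. Rgs17 and Snx13 differed by 0.14 and -0.08 and were not called.

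Of 8 alpha subunits 2 rose and 4 fell. Gnai2, the main Gi alpha subunit of lymphocytes and a substrate of most members above, fell by 0.99 (adjusted p of 2.67e-05). Gna15, a Gq family subunit, fell by 0.74, and Gna13 rose by 0.86. Of 8 beta and gamma subunits 3 rose and 2 fell. Gnb5, known as the partner of RGS proteins of another subfamily, rose by 2.80 (adjusted p of 1.05e-11), Gnb2 fell by 1.30, and Gnb4 fell by 1.05 with 1 of 4 stimulated arrays above background.

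Of 28 receptors 10 rose and 14 fell. The thromboxane receptor Tbxa2r was at least 14.2-fold lower in isoform A stimulated than in isoform A unstimulated cells, where it was above background on 0 of 4 and on 4 of 4 arrays. The prostaglandin E receptor Ptger2 was 9.97-fold higher, and the sphingosine 1-phosphate receptor S1pr4 fell by 3.20. Of 4 receptor kinases and arrestins, which switch off receptors themselves, 0 rose and 2 fell, Grk6 by 2.43 and Arrb2 by 2.04.

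Of 7 other G protein regulators 1 rose and 5 fell. Arhgef1, a protein with an RGS domain, fell by 1.78, and its other probes differed by -0.84 and -0.51. Gpsm2, which binds inactive Gi alpha subunits, was at least 2.12-fold lower, and Gpsm3 fell by 1.42. Of 17 effectors 2 rose and 12 fell. Pik3cg, the catalytic subunit of the phosphoinositide kinase that beta-gamma dimers activate, fell by 2.86, the adenylyl cyclase Adcy6 by 2.33 and the protein kinase A subunit Prkacb by 2.33.

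Mock stimulated cells were set against the same isoform A unstimulated arrays, and their values are given side by side with those above. Among the 3 genes of each list with the largest called difference, those that fell were Rgs12 (-2.46), Gnai2 (-1.55), Gnb2 (-1.16), Gnb4 (-1.03) and S1pr4 (-3.23), and those that rose were Akap10 (0.72), Gna13 (1.14), Gnaq (0.86), Gnb5 (2.5) and Ptger2 (3.20). Of the kinases, arrestins and other regulators, Grk6 (-2.80), Arrb2 (-2.66), Grk5 (-0.69), Gpsm3 (-1.73) and Arhgef1 (-1.47) fell, as did the effectors Adcy6 (-2.48) and Pik3cg (-2.45). Tbxa2r was at least 14.6-fold, Gpsm2 at least 2.18-fold and Rap1gap2, a regulator of the small GTPase Rap1, at least 3.93-fold lower, each above background on 0 of 4 mock stimulated arrays.

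**Figure D4:**
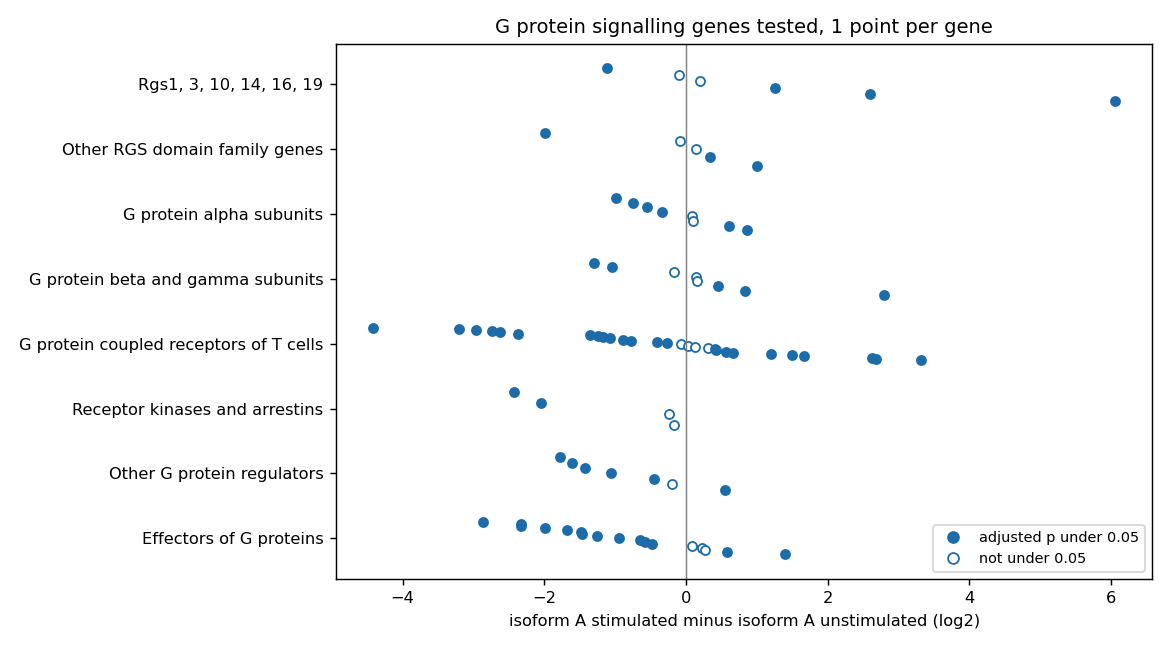
Log2 difference between isoform A stimulated and isoform A unstimulated cells (x axis) for each gene tested in the RGS set and in 7 lists of G protein signalling genes (y axis), 1 point per gene and filled where adjusted p was under 0.05. Rgs16 is the highest point of all, and points of regulators and effectors lie mostly below 0.

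Among the stimulated groups few of the 77 genes differed, and the counts were near the shares of all genes. In isoform A against mock, 2 were higher and 2 lower, where 4.86% of all genes were called, and these were receptors. Gpr183, the oxysterol receptor that guides lymphocyte position, was lower by a log2 difference of -0.76 (adjusted p of 0.000689). Gpr146 differed by -1.36 (adjusted p of 0.00132), above background on 2 of 4 isoform A and 4 of 4 mock arrays, and by -0.33 on its other probe. The others, outside the naming rule and chosen after their values were seen, were the proton sensor Gpr65 at 0.45 (adjusted p of 0.0335) and the somatostatin receptor Sstr2 at 0.52 (adjusted p of 0.0381). Sstr2 was above background on 3 of 4 isoform A and 0 of 4 mock arrays, at least 1.02-fold higher.

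With the mouse as a block 6 were higher and 2 lower, where 8.79% of all genes were called, the added ones being Rgs12 (0.47, adjusted p of 0.0807 without and 0.0197 with the block), Gnai2 (0.56, 0.0517 and 0.0433), Gngt2 (0.60, 0.0655 and 0.00285) and Arrb2 (0.62, 0.123 and 0.0103), also chosen after their values were seen. In isoform B against mock, 0 were higher and 2 lower, where 1.86% of all genes were called, again Gpr183 (-0.69, adjusted p of 0.00284) and Gpr146 (-1.17, adjusted p of 0.00706). With the block 3 were higher and 2 lower there, where 3.99% of all genes were called, the higher ones being Rgs12, Axin2 and Gngt2. In isoform A against isoform B, limma called 0 of 77 with or without the block.

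For each member, the 2 genes whose level followed it most closely over the 12 stimulated arrays are given as a description. These arrays share mice and normalization, and the genes were picked from 8480. Each r is followed by its value without the 2 arrays farthest from the median of the member. Rgs1 was followed by Eif4e3 (r = 0.94, then 0.87) and Sfn (0.93, then 0.84), and Rgs16 by Zgpat (0.92, then 0.87) and Arhgap1 (0.89, then 0.86). Rgs10 was followed by Slc30a1 (0.90, then 0.92) and Socs6 (0.90, then 0.86), and Rgs3 by Fmo1 (0.91, then 0.84) and Rpl21 (0.88, then 0.77). Rgs19 was followed by Rom1 (0.80, then 0.69) and Reep4 (0.80, then 0.64). Rom1 was above background on 4 of the 12 arrays, Fmo1 on 7 and Sfn on 9. Rgs14 was above background on 0 of these arrays, so no gene is named for it.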

How the data were processed

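The deposited unnormalized intensity values are linear bead signals per probe from GenomeStudio 2011.1, per the submitters' processing notes, each with a deposited detection p-value, per the file headers. The authors' deposited value table of normalized intensity, whose method is not given in the sources used here, served as an alternative with an offset of 16 before log2. Its values were linear, with a lowest r of 0.998 against the raw signals and a highest r of 0.726 against their log2, and were background-subtracted, with 28.6% below 0. Array medians were 8.06 to 8.11.

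Background was corrected with limma's normexp on the detection p-values (offset 16), followed by quantile normalization and log2 (limma 3.58.1, statmod 1.5.0, R 4.3.3). Probes with a detection p under 0.05 on at least 4 of 16 arrays were kept (12344 of 25697), and the brightest probe stood for each of 8480 genes. Of all probes 23978 had 1 gene symbol and 1719 were unnamed here. Tests were limma's moderated tests, 2-sided, on 4 group means (12 residual degrees of freedom), Benjamini-Hochberg adjusted over all genes or, for single probes, over all probes kept. They were also run on simulated data, and no result given here rests on that run. Precision is limited by having 4 arrays a group.

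The members, gene lists and tests were chosen with earlier results of these data known. Named pathway genes were the 3 called genes with the largest difference per list (2 among stimulated groups). The sample titles give a replicate number and name no mouse. Same-numbered arrays were taken to come from the same mouse, and the numbers pair them on that reading. Whether a shared number marks a shared mouse was not tested, so calls made with the block rest on this reading. After removal of group means, arrays with the same number correlated with r of 0.109 to 0.401 (24 pairs). Arrays with different numbers had a mean r of -0.0905. That removal ties the second value to the first, so the negative mean is no separate observation. Alternatives changed the background correction, scaling, detection filter, probe rule, variance prior, arrays and values used. The model with mouse as a block is an alternative, given where it changes a call.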

Additional observations from a re-analysis of the deposited data

How the results depend on the processing

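Differences here are log2. In both comparisons of stimulated with isoform A unstimulated cells, the calls of Rgs16, Rgs1, Rgs3 and Rgs14 were kept under all 12 alternatives and every array left out. Rgs19 turned sign under median scaling (-0.080 in isoform A, -0.12 in mock). With the replicate block, the pairing by mouse, Rgs1 became called in isoform A against mock (0.59) and isoform B against mock (0.49), 1 member each, and genes called were 745, 338 and 46 (without the block 412, 158 and 18), the third number being that of isoform A against isoform B. It changed no other call of a member.

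Choices made after seeing the data joined that block to others. Rgs1 in isoform A against mock was then 0.64 under median scaling, 0.54 in the authors' deposited value table, 0.57 without background correction, 0.60 with probes averaged and 0.59 on stimulated arrays alone, called each time. In isoform B against mock it was called at 0.48, 0.62 and 0.49 under the third to the fifth of these. Averaging probes without the block also called Rgs1 in isoform A against mock (0.60, 1 member), and turned Rgs3 in isoform B against mock (0.074), and Rgs1 (-0.020, with the block -0.020) and Rgs3 (-0.027) in isoform A against isoform B.

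Genes called in isoform A against mock were 136 under median scaling, 161 with only the 2 groups fitted and 41 in mice 1 and 2. In isoform B against mock they were 64, 61, 8 and, in mice 3 and 4, 19. In isoform A against isoform B they were 32 without background correction, 11 under median scaling, 8 in the authors' table, 0 with the 2 groups, 1 in mice 1 and 2 and 75 in mice 3 and 4. G protein genes called ranged over 0 to 8 in isoform A against mock (4 as reported) and 0 to 5 in isoform B against mock (2 as reported).

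Differences near 0, never called, turned sign as follows. In isoform A against mock these were Rgs3 in mice 1 and 2 (-0.038), and Rgs14 (-0.0056), Rgs16 (-0.0070) and Rgs19 (-0.033) in mice 3 and 4. In isoform B against mock they were Rgs19 in mice 1 and 2 (0.042) and Rgs3 in mice 3 and 4 (0.0031). In isoform A against isoform B they were Rgs14 under median scaling (-0.00017), in the authors' table (-0.022) and in mice 3 and 4 (-0.027), and Rgs10 in mice 3 and 4 (-0.10).

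With 1 array left out, without the block except that Rgs1 and Rgs10 were also fitted with it, isoform A against mock gave 200 to 504 genes called, Rgs1 at 0.45 to 0.65 and Rgs19 at -0.079 to 0.14. Isoform B against mock gave 88 to 142 genes, Rgs1 at 0.35 to 0.60, Rgs3 at -0.084 to 0.048, Rgs14 at -0.0033 to 0.032 and Rgs19 at -0.15 to 0.033. Isoform A against isoform B gave 8 to 20 genes, Rgs1 at -0.013 to 0.18, Rgs10 at -0.031 to 0.13 and Rgs14 at -0.018 to 0.029. The causes were not tested. Rgs14, Rgs19 and 2 Rgs3 probes lie near background, which limits their folds.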
